A study of Mus musculus with 2 samples.

Results

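The loci of the DNA methyltransferase genes Dnmt1, Dnmt3a and Dnmt3b, of the cofactor gene Dnmt3l and of Uhrf1 were read for the state of each CpG on both DNA strands. These 5 genes were taken from 21938 protein-coding genes, and each locus was the GENCODE vM21 span of the gene plus 5 kb upstream. The loci held 2497 of the 13676795 CpG sites of replicate 1 and 988 of the 4918612 sites of replicate 2, with 851 sites in both. The DNA came from E14 cells, a mouse embryonic stem cell (mESC) line grown in serum and LIF, and the replicates were separate passages of the same untreated line. There was 1 condition, so levels were compared between regions and between genes within the replicates. The p-values rest only on the spread between these 2 samples, pooled largely over all genes tested. A gene whose own replicates disagree can therefore still be called.

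SCoTCH-seq reads, at both cytosines of a CpG in 1 DNA duplex, whether the base is unmodified (C), methylated (mC) or hydroxymethylated (hmC), so that each read pair gives a CpG state. In a state of 2 letters the first letter is the base on the plus strand, with M for mC and H for hmC. The 9 states were summed to 6 groups, namely unmodified CC, symmetrically methylated MM, hemimethylated MC/CM, hemihydroxymethylated HC/CH, the mixed pair HM/MH, and HH. A level is the percentage of all calls in a region that have the state.

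DNMT1 is the maintenance methyltransferase. It copies methylation to the new strand after replication, and UHRF1 brings it to hemimethylated CpGs. DNMT3A and DNMT3B set methylation de novo, and DNMT3L, which has no catalytic activity, stimulates both. TET enzymes oxidize mC to hmC, and CpG-dense promoters of active genes are in general unmodified.

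The loci lay on different chromosomes, namely Dnmt1 on the minus strand at chr9:20907209-20959888, Uhrf1 on the plus strand at chr17:56303321-56323486, Dnmt3a at chr12:3806007-3914443, Dnmt3b at chr2:153649450-153687730 and Dnmt3l at chr10:78041947-78063622, the last 3 on the plus strand (mm10). Of 4094 reference CpGs in the loci, 61.0% had a deposited site in replicate 1 and 24.1% in replicate 2, with 23184 and 6270 calls. Sequence cover was uneven within the genes. In Dnmt3b, 156 consecutive CpGs over 12.8 kb, from 25.3 kb after the gene start to 38.1 kb, had no site in either replicate. This gap had a GC content of 47.0%. The values for the body of Dnmt3b therefore describe its 5′ part. In Dnmt3a the longest such gap was 1.72 kb with 249 CpGs and a GC content of 80.5%, from 0.366 kb to 2.08 kb after the gene start. Gaps also lay over other starts, with 77 CpGs over 0.460 kb spanning the start of Dnmt3b and 40 CpGs from 85.3 to 86.0 kb at the start of the shorter isoform Dnmt3a2, so the promoter values there come from the CpGs around these gaps. In Dnmt1, Uhrf1 and Dnmt3l no gap was longer than 18 CpGs. Whether filtering or base composition emptied these stretches was not tested.

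The bases just upstream of annotated starts show what was read at the 5′ ends. They are given 5′ to 3′ on the coding strand with every CpG in capitals (RefSeq starts, GRCm38.p6), for the CpG-poor upstream start of Dnmt1 and its CpG-richer downstream start, for an internal start of Uhrf1, for the start of the long transcript of Dnmt3a, for Dnmt3b, and for the upstream start of Dnmt3l.
Dnmt1 upstream start, chr9:20959889-20960138, minus strand: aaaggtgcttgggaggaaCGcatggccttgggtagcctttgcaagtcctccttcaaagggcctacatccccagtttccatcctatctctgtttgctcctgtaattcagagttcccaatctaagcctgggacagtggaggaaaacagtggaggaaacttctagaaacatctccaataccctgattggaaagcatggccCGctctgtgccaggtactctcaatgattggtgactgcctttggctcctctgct
Dnmt1 downstream start, chr9:20952980-20953229, minus strand: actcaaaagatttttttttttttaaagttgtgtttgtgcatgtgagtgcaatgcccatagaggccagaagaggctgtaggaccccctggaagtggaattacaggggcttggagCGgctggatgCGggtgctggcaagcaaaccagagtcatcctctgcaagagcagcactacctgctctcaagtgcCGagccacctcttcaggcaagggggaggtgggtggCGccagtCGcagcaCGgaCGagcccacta
Uhrf1 internal start, chr17:56304063-56304312, plus strand: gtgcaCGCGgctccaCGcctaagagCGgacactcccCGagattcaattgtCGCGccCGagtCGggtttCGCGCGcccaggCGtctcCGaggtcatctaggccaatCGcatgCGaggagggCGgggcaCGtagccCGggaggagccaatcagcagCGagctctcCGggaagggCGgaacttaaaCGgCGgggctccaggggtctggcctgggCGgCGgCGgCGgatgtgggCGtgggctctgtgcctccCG
Dnmt3a long transcript, chr12:3806730-3806979, plus strand: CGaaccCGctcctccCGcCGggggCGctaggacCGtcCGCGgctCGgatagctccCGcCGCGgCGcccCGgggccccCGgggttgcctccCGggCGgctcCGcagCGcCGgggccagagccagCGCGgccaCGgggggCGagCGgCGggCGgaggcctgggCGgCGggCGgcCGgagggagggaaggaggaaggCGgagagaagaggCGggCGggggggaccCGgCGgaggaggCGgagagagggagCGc
Dnmt3b, chr2:153649199-153649448, plus strand: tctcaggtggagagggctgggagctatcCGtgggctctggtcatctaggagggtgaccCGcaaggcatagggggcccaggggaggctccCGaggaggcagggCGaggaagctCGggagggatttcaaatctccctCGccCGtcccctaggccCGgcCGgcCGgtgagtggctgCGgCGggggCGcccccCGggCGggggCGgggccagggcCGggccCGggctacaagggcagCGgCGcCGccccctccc
Dnmt3l upstream start, chr10:78042128-78042286, plus strand: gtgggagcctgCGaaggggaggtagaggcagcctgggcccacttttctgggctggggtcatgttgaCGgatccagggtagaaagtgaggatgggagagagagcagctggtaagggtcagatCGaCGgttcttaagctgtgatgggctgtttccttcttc

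These stretches differed in both CpG number and state. The upstream Dnmt1 stretch held 2 CpGs, and of its 17 calls in replicate 1, 82.4% were MM, 11.8% were HC/CH and none was CC; replicate 2 had no site there. The downstream Dnmt1 stretch held 7 CpGs, and all 14 calls of replicate 1 and all 28 of replicate 2 were CC. The Uhrf1 stretch held 30 CpGs, of which 29 were covered in replicate 1 with 210 calls, all CC, which allows a modified share of up to 1.43%. Replicate 2 covered 3 of them, with 15 calls, all CC, which allows up to 20%. These limits treat calls as independent, but 1 read pair can give calls at several neighbouring CpGs. Each covered CpG of the stretch had 5 to 11 calls in replicate 1, so the true limits may be higher. The Dnmt3b stretch held 21 CpGs, and the 18 and 10 calls of the replicates, at the 3 CpGs farthest upstream, were all CC. The Dnmt3a stretch held 38 CpGs at a GC content of 82.4% and no deposited site. The Dnmt3l stretch was the mixed case: its CpG at 35 bp before the start had 10 CC calls of 14 in replicate 1 and 2 of 6 in replicate 2, whereas the CpG at 93 bp had no CC call among 6 calls in either replicate.

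Across the whole data, replicate 1 held 143497239 calls at a mean depth of 10.5 per site, and replicate 2 held 31306245 calls at 6.36. Every listed site carried 5 calls or more. On synthetic spike-in duplexes of known state, 4.51% of MM duplexes in replicate 1 were read as HM/MH, against 0.467% in replicate 2. Of MC duplexes, 3.49% and 0.618% were read as HC/CH. False hmC calls from these methylated states were thus more frequent in replicate 1. Confusion of HC with HM went the other way, with 1.12% of HC duplexes read as HM in replicate 1 and 3.98% in replicate 2. The promoters of Pou5f1, Nanog, Zfp42, Esrrb, Tdgf1 and Dppa4, 6 stem cell markers, had CC levels of 78.4 to 99.3% in replicate 1 and 79.5 to 98.9% in replicate 2. Transcript levels were not measured in these libraries.

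Promoters, here the sites within 1 kb of the TSS of any protein-coding transcript, were mostly unmodified in all 5 genes, and the level of CC differed between them. CC at the Uhrf1 promoter was 96.0% of 718 calls in replicate 1 (exact 95% interval 94.3 to 97.3) and 95% of 80 calls in replicate 2 (87.7 to 98.6). At the Dnmt3b promoter it was 86.7% of 361 calls and 86.7% of 105 calls. At the Dnmt1 promoters it was 82.5% of 553 calls and 81.5% of 189 calls. At the Dnmt3l promoters it was 70.3% of 711 calls and 70.2% of 208 calls. At the Dnmt3a promoters it was 63.3% of 966 calls (60.1 to 66.3) and 60.1% of 233 calls (53.5 to 66.4). The order of the genes was the same in both replicates, but it depended on the promoters and sites used. With promoters only at the TSSs of the GENCODE basic set, an alternative chosen after seeing the data, the mean CC of Dnmt3a was 96.5% against 61.7%, and Dnmt3a moved from the lowest to the highest of the 5. At a coverage minimum of 10 that of Dnmt3l was 52.7% against 70.3%. Over all sites, neighbours in that order had overlapping intervals in replicate 2, but Uhrf1 and Dnmt3a, at its ends, did not overlap in either. All intervals cover counting error only and treat calls as independent. Because 1 read pair can give calls at several neighbouring CpGs, they are likely too narrow. Against 7221 protein-coding genes with enough promoter calls, whose median was 87.3% and 86.2%, Dnmt3a lay above 18.4% and 18.8% of genes and Uhrf1 above 78% and 74.7%.

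The gene body, meaning exons and introns more than 1 kb from any TSS, held far less CC. In replicate 1 it was 23.5% in Dnmt1, 25.8% in Uhrf1, 31.2% in Dnmt3a, 25.4% in Dnmt3b and 39.8% in Dnmt3l, and in replicate 2 it was 20.4%, 19.5%, 29.1%, 19.5% and 29.7%. Both replicates had the promoter above the body in all 5 genes, without overlap. CC was called higher at the promoter in 4 of the 4 members with at least 100 calls in each region and replicate, against 94.6% of all 6239 genes tested (edgeR quasi-likelihood test, adjusted p over all genes), so the members did what nearly all genes do. The difference was 60.0 ± 1.49 percentage points (SD, n = 2) in Dnmt1, a log2 odds ratio of 4.01 ± 0.40 (SE, edgeR adjusted p = 3.57e-08). It was 64.3 ± 4.11 points in Dnmt3b, with a log2 odds ratio of 4.46, 35.5 ± 7.10 points in Dnmt3l, with 2.13, and 31.5 ± 0.762 points in Dnmt3a, with 1.90. With promoters only at the basic-set TSSs, the log2 odds ratio of Dnmt3a was 5.76 (edgeR adjusted p = 4.86e-07), the highest rather than the lowest of the 4, while those of the other members stayed at 4.01, 4.46 and 2.13. Uhrf1 had too few promoter calls in replicate 2 for that fit. Without a minimum of calls, its difference of 72.8 ± 3.78 points gave a log2 odds ratio of 6.14 ± 0.60 (edgeR adjusted p = 4.51e-24), and all 5 members were called, against 71.7% of genes.

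**Figure D1:**
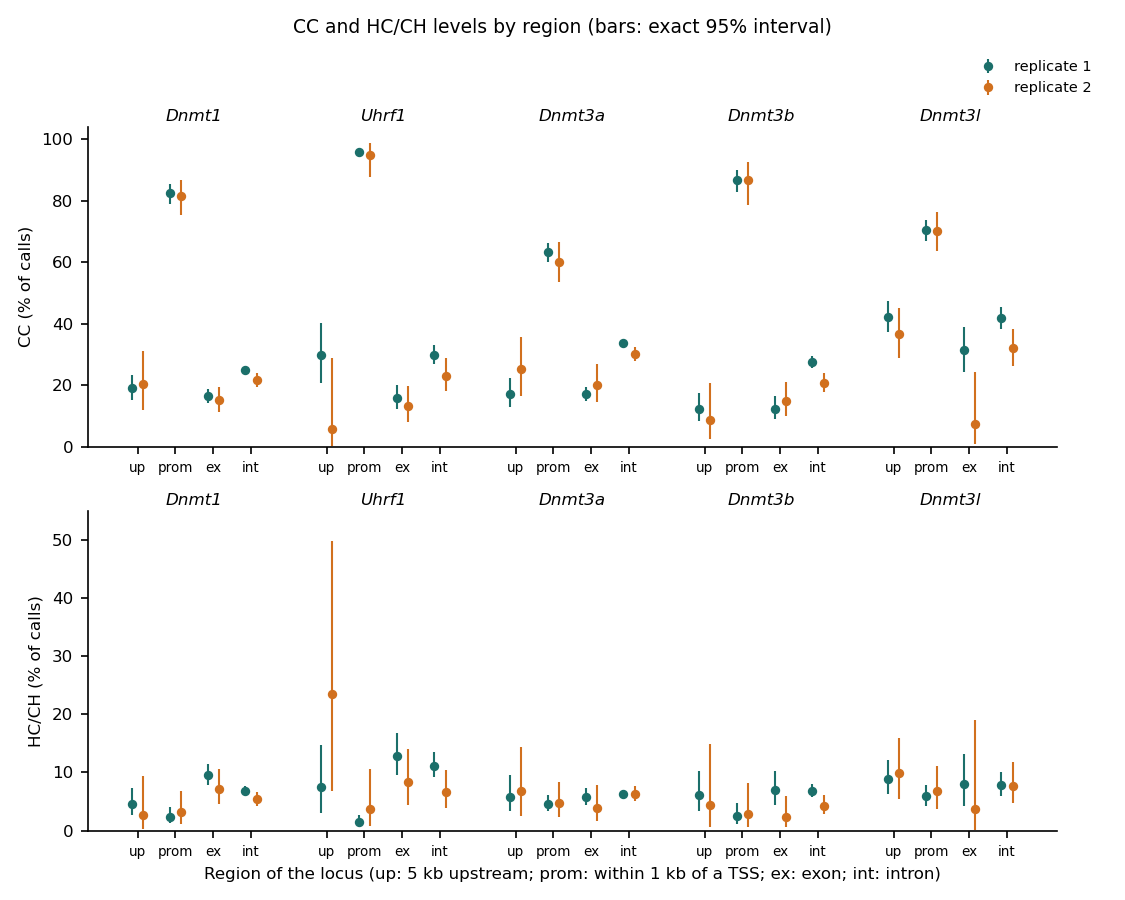
CC (upper) and HC/CH (lower) as a percentage of calls in the 5 kb upstream, promoters, exons and introns of each gene; points are replicates and bars are exact 95% intervals. Promoter CC lies between 60.1% and 96.0% and above all other regions of the same gene, and the widest interval of HC/CH belongs to the 17 calls upstream of Uhrf1 in replicate 2.

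In Dnmt1 and Dnmt3a the promoter value mixed unmodified and methylated surroundings of annotated starts. In Dnmt3l it mixed unmodified and partly modified ones. Dnmt1 had 2 clusters of TSSs (starts within 1 kb of each other). The one at the gene start had a CpG-poor surrounding of 28 CpGs, with CC at 6.17% of 81 calls in replicate 1 and 17.1% of 41 calls in replicate 2, and MM at 75.3% and 53.7%. The cluster 6909 bp downstream, where most annotated protein-coding transcripts of Dnmt1 start, had 90 CpGs and CC at 95.6% of 472 calls and 99.3% of 148 calls. Thus 1 gene held a methylated and an unmodified start, and their intervals did not overlap in either replicate. Uhrf1 and Dnmt3b each had 1 cluster.

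Dnmt3a had 5 clusters, which differed in CC. Its first cluster, at the CpG island of the long transcript with 276 CpGs and a GC content of 71.9%, had CC at 64% of 136 calls and 64.7% of 68 calls, but most of its CpGs lay in the gap without sites. The value rests on 17 and 11 covered CpGs and does not describe the whole island. From 2000 to 2999 bp, at the downstream edge of the gap, CC was 93.1% of 144 calls and 100% of 53 calls. The cluster 55014 bp into the gene had CC at 11.7% of 128 calls and at 0 of 26 calls, which allows a share of up to 11.5%. The cluster at 79442 bp had only 18 CpGs and was unmodified all the same, with CC in 135 of 150 calls and in 96.4% of 28 calls. The cluster at 85721 bp, from which the shorter isoform known as Dnmt3a2 starts, had CC at 95.1% of 347 calls and 96.9% of 64 calls. The last cluster, at 88817 bp, had CC at 21.5% of 205 calls and 14.9% of 47 calls, and MC/CM at 15.6% and 23.4%. The 2 clusters at 79442 and 85721 bp were above the clusters at 55014 and 88817 bp in both replicates, without overlap of their intervals. With promoters only at the TSSs of the GENCODE basic set, the mean promoter CC of Dnmt3a was 96.5%. The low windows at 55014 and 88817 bp therefore belong to annotated starts outside that set. Whether these starts are used in these cells was not tested.

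Dnmt3l had 3 clusters. The one 7895 bp into the gene was unmodified, with CC at 90.9% of 318 calls and 87.5% of 120 calls. The upstream cluster was mixed, with CC at 55% of 242 calls and 39.2% of 51 calls, MM at 24% and 29.4%, and HC/CH at 9.92% and 19.6%. The downstream cluster, at 13388 bp, had CC at 51.7% of 151 calls and 56.8% of 37 calls. HC/CH over all Dnmt3l promoters was 5.91% and 6.73%, above that of 93.0% and 93.2% of genes, so Dnmt3l combined a promoter CC below the median gene with a promoter HC/CH above it.

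**Figure D2:**
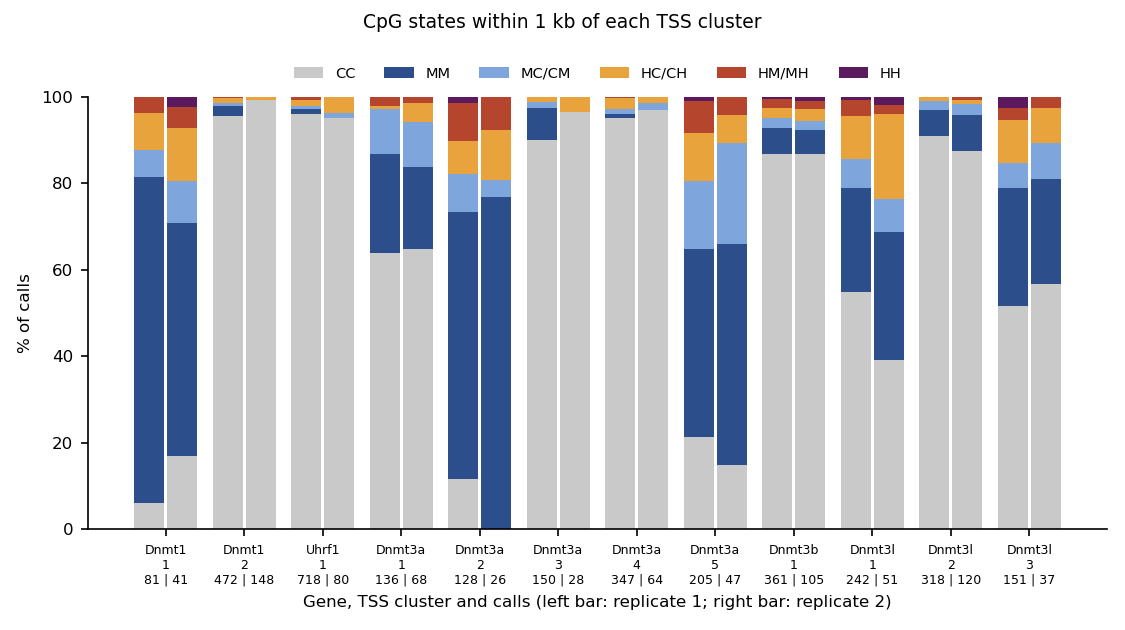
Percentage of calls in each CpG state within 1 kb of each TSS cluster, stacked, with replicate 1 as the left bar and replicate 2 as the right bar and the calls of both under the bars. Cluster 2 of Dnmt1, cluster 4 of Dnmt3a and cluster 2 of Dnmt3l are at 87.5% CC or more in both replicates, whereas cluster 1 of Dnmt1 and cluster 2 of Dnmt3a are at 17.1% or less.

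Unmodified stretches reached beyond the promoters. Runs of 500 bp windows with at least 50% CC in both replicates, passing over windows without calls in a replicate, covered 3000 bp of Dnmt1 around its downstream cluster, from 6000 to 8999 bp, with CC at 95.1% of 549 calls and 95.5% of 199 calls. A further run of 2500 bp in Dnmt1, of which 4 windows met the level and the rest had no calls in a replicate, from 11500 to 13999 bp and more than 1 kb from any TSS, had CC at 66.2% of 305 calls and 69.0% of 116 calls. The last run in Dnmt1, of 1000 bp from 15000 bp and also away from any TSS, had CC at 74.6% of 67 calls and 95% of 20 calls. Uhrf1 held a single run of 4000 bp, from 1000 bp before its start, with 91.8% and 89.6%. Dnmt3b held a single run of 4000 bp, from 500 bp before its start, with 96.3% and 97.5%. Dnmt3l held a run of 4500 bp from 6000 bp, with 85.3% and 82.4%, and 3 others. That of 1500 bp from 500 bp lay partly in the window of the upstream cluster, with 91.5% of 354 calls and 77.1% of 35 calls. That of 500 bp from 13000 bp held the downstream cluster, with 73.1% of 26 calls and 100% of 8 calls. Both clusters were thus mixed as windows, with unmodified stretches in them. The other, of 2000 bp from 4000 bp before the gene start, had 59.1% of 171 calls and 51.5% of 68 calls.

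Dnmt3a, with 108437 bp the longest of the genes, held 14 runs. Of these, 3 touched the sites within 1 kb of a TSS, and 11 lay inside the gene away from any annotated protein-coding start. The longest covered 4500 bp, from 83000 to 87499 bp, around the start of Dnmt3a2, with CC at 91.0% of 525 calls and 90.9% of 154 calls. A run of 2000 bp at 64500 bp, with no TSS within 1 kb, had CC at 92.5% of 214 calls and 86.4% of 22 calls. A run of 1500 bp at 99500 bp, near the 3′ end, had CC at 68.1% of 185 calls and 68.1% of 47 calls, with HC/CH at 13% and 14.9%. Of the runs of 500 bp, 5 rested on 5 to 12 calls in replicate 2. The windows were chosen by their CC level, so these values describe them and were not tested.

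**Figure D3:**
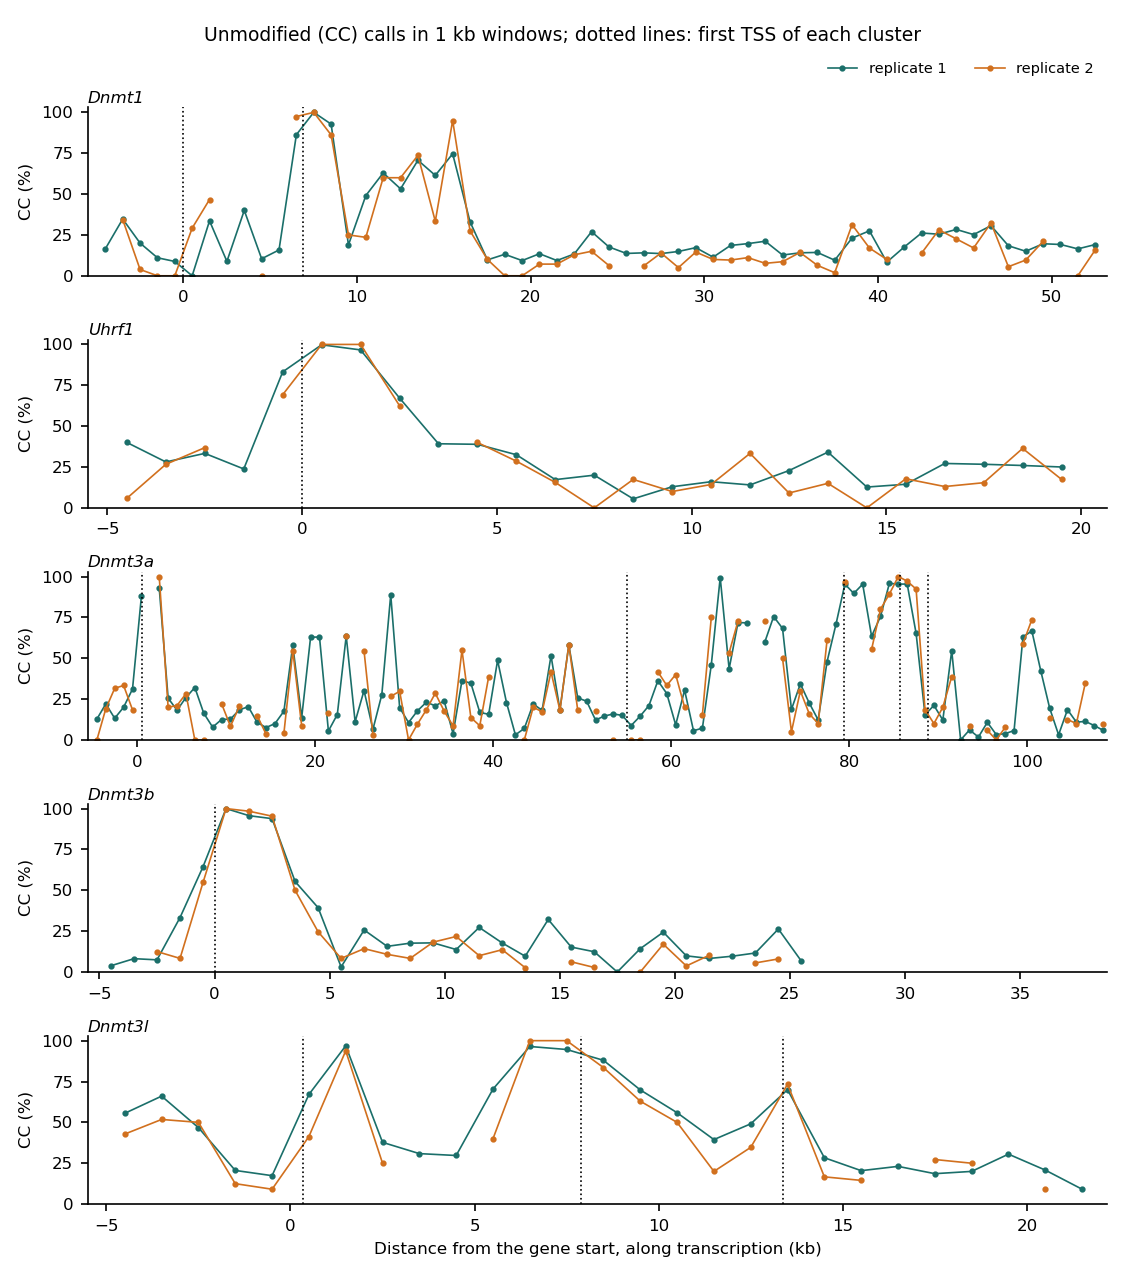
CC as a percentage of calls in 1 kb windows with at least 10 calls, against the distance from the gene start along transcription in kb; dotted lines mark the first TSS of each cluster. Dnmt1, Uhrf1 and Dnmt3b have 1 main unmodified stretch near the 5′ end, Dnmt3a has several inside the gene, and a stretch of 12.8 kb at the 3′ end of Dnmt3b has no site.

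HC/CH and HM/MH were lower at promoters than in bodies in all 5 genes, but few of these differences passed the test. HC/CH at the promoter against the body was 2.35% against 7.34% in Dnmt1 in replicate 1 and 3.17% against 5.71% in replicate 2. It was 1.53% against 11.7% and 3.75% against 7.25% in Uhrf1, and 2.49% against 6.85% and 2.86% against 3.83% in Dnmt3b. It was 4.66% against 6.27% and 4.72% against 6.07% in Dnmt3a, and 5.91% against 7.90% and 6.73% against 7.33% in Dnmt3l. Of the 4 members tested, only Dnmt1 was called lower at the promoter (log2 odds ratio -1.40 ± 0.50, edgeR adjusted p = 0.0118), against 55.5% of 6233 genes. Without a minimum of calls Uhrf1 was called (-2.54 ± 0.66, edgeR adjusted p = 0.00122) and Dnmt1 was not (edgeR adjusted p = 0.0535), against 27.1% of genes. The values of Dnmt3a and Dnmt3l gave log2 odds ratios of -0.42 ± 0.41 and -0.33 ± 0.50. Clusters differed, which was not tested. HC/CH lay above the body in both replicates at the Dnmt1 gene start (8.64% and 12.2%). It did so at the Dnmt3a clusters at 55014 bp (7.81% and 11.5%) and 88817 bp (11.2% and 6.38%). The upstream (9.92% and 19.6%) and downstream (9.93% and 8.11%) clusters of Dnmt3l were also above. All other clusters lay below in both replicates. In HM/MH only the Dnmt3a cluster at 55014 bp was above in both, at 8.59% and 7.69%.

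HM/MH at the promoter was 0.723% against 5.35% in the body of Dnmt1 in replicate 1, and 1.06% against 3.12% in replicate 2. Dnmt1 was called lower at the promoter (log2 odds ratio -2.47 ± 0.79, edgeR adjusted p = 0.00497), alone among the 4 members tested and against 57.8% of 6203 genes. Without a minimum of calls Uhrf1 was called as well (-3.39 ± 1.00, edgeR adjusted p = 0.00612), against 28.1% of genes. HM/MH at its promoter was 0.557% in replicate 1, and replicate 2 had 0 such calls of 80, which allows a share of up to 3.75%. The call of Dnmt1 was lost where only sites covered in both replicates were used (edgeR adjusted p = 0.112). With the TSSs of the basic set, Dnmt3a was also called lower at its promoters, with a log2 odds ratio of -1.80 (edgeR adjusted p = 0.00659) in HC/CH and of -3.45 (edgeR adjusted p = 0.00217) in HM/MH.

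No difference in HC/CH or HM/MH between exons and introns was called. HC/CH in exons against introns was 9.50% against 6.88% in Dnmt1 in replicate 1 and 7.23% against 5.35% in replicate 2. In Uhrf1 it was 12.9% against 11.2% and 8.33% against 6.64%. In Dnmt3a it was 5.74% against 6.36% and 3.91% against 6.32%, and in Dnmt3b 6.94% against 6.83% and 2.37% against 4.21%. None of the 4 members tested was called for HC/CH, against 2.22% of 6313 genes, nor for HM/MH, against 0.349% of 6308 genes, and none had an unadjusted p under 0.05 in edgeR. By limma the unadjusted p was 0.0210 for HC/CH of Dnmt1, 0.0498 for its HM/MH and 0.0305 for HM/MH of Dnmt3a, and none passed adjustment (limma adjusted p = 0.193, 0.391 and 0.323). On sites covered in both replicates the log2 odds ratio of Dnmt3a changed sign, from -0.28 to 0.08 in HC/CH and from 0.51 to -0.10 in HM/MH. The log2 odds ratio of Dnmt1 in HC/CH was 0.50 ± 0.27 and in HM/MH 0.47 ± 0.31. Dnmt3l had 27 exon calls in replicate 2 and entered only the fit without a minimum, where its HM/MH was higher in exons by 4.95 ± 1.12 points and was not called (edgeR adjusted p = 0.735). CC was lower in exons than in introns in both replicates of all 5 genes, for example 17.1% against 33.5% and 20.1% against 30.1% in Dnmt3a, a difference that was not tested.

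Within their bodies the members had less hemimethylation than the median gene. MC/CM in replicate 1 was 9.47% in Dnmt1, 8.36% in Uhrf1, 9.72% in Dnmt3a, 11.7% in Dnmt3b and 8.80% in Dnmt3l, against a median of 13.3% over 7523 genes with at least 500 body calls in each replicate. In replicate 2 it was 10.7%, 7.25%, 11.4%, 11.6% and 10.3%, against 14.7%. All 10 values lay below the median of their replicate. MC/CM was called lower in 3 of the 3 members tested, against 28.1% of all genes, and in 5 of 5 without a minimum of calls, against 26.5%. The log2 odds ratio was -0.55 ± 0.08 in Dnmt1 (edgeR adjusted p = 1.10e-11), -0.49 ± 0.07 in Dnmt3a (5.08e-11) and -0.27 ± 0.11 in Dnmt3b (0.0273). Without a minimum it was -0.86 ± 0.16 in Uhrf1, the largest of the 5, and -0.65 ± 0.18 in Dnmt3l.

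MM in the bodies was lower too. CC in the bodies lay above the median gene, 18.3% and 14.7%, in both replicates of all 5 members, a difference that was not tested. MM in replicate 1 was 53.9% in Dnmt1, 48.4% in Uhrf1, 48% in Dnmt3a, 50.8% in Dnmt3b and 38.3% in Dnmt3l, against a median of 58.0%. In replicate 2 it was 59.9%, 62.3%, 48.8%, 61.4% and 49.1%, against 63%. MM was called lower in 3 of 3, against 36.5% of genes, and in 5 of 5 without a minimum, against 37.0%. The lower values of Dnmt3a and Dnmt3l repeated in both replicates, with differences of -12 ± 2.97 and -16.8 ± 4.12 points, whereas those of Uhrf1 and Dnmt3b rested mostly on replicate 1, with differences of -9.58 and -0.701 points in Uhrf1 and of -7.15 and -1.59 points in Dnmt3b.

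HC/CH went the other way. In replicate 1 it was 11.7% of 1232 calls in Uhrf1 (interval 9.95 to 13.6), 7.90% of 886 calls in Dnmt3l, 7.34% of 5943 calls in Dnmt1, 6.85% of 2279 calls in Dnmt3b and 6.27% of 7655 calls in Dnmt3a, against a median gene of 4.99%. In replicate 2 it was 7.25% of 400 calls in Uhrf1 (4.91 to 10.3), 7.33% of 273 calls in Dnmt3l, 5.71% of 1664 calls in Dnmt1, 6.07% of 1778 calls in Dnmt3a and 3.83% of 810 calls in Dnmt3b, against 4.24%. Thus over all sites 4 members were above the median gene in both replicates, and Dnmt3b was above it in replicate 1 and below it in replicate 2. HC/CH was called higher in 2 of the 3 members tested, against 25.8% of genes, namely Dnmt1 (log2 odds ratio 0.54 ± 0.11, edgeR adjusted p = 6.75e-04) and Dnmt3a (0.42 ± 0.11, edgeR adjusted p = 0.00412). Dnmt3b was not called (0.31 ± 0.16, edgeR adjusted p = 0.112). Without a minimum of calls, 4 of 5 were called, against 18.0% of genes, with Uhrf1 at 1.19 ± 0.18 (edgeR adjusted p = 7.56e-10) and Dnmt3l at 0.74 ± 0.22 (edgeR adjusted p = 0.00403).

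Uhrf1 had the highest HC/CH of the members in replicate 1. Among 11229 other genes with at least 250 body calls in each replicate, a limit that all 5 members pass, 1 gene reached the level of Uhrf1 in replicate 1 and 916 did in replicate 2. The replicates of Uhrf1 differed by more than those of Dnmt3a, with means of 9.47% ± 3.14 and 6.17% ± 0.139 (SD, n = 2). Dnmt3l lay above 96.2% and 92.5% of these genes and Dnmt1 above 92.1% and 75.5%. At sites with at least 10 calls the mean HC/CH of Dnmt3l was 4.37%, against 7.61% over all its sites. That of Dnmt3a was 4.69%, against 6.17%. No member was set against the median gene at those sites, so the excess is shown only over all sites.

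As shares of the modified calls, which leave CC out, HC/CH and MC/CM lay on the same side of the median gene as their levels did. HC/CH made up 15.8% and 9.01% of the modified calls in the body of Uhrf1, 13.1% and 10.4% in Dnmt3l, 9.59% and 7.18% in Dnmt1, and 9.12% and 8.57% in Dnmt3a, against a median gene of 6.14% and 4.99%. In Dnmt3b it was 9.17% and 4.75%. MC/CM made up 11.3% and 9.01% of the modified calls in Uhrf1 and 12.4% and 13.4% in Dnmt1, against 16.5% and 17.5%. In replicate 2 of Uhrf1, HC/CH and MC/CM were equal in number, and in replicate 1 HC/CH was the more frequent. The share of HM/MH lay above the median gene, 5.49% and 3.30%, in both replicates of all 5 members, and in Dnmt3a, at 6.34% and 6.19%, this differed in replicate 1 from its level, which lay just below the median.

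**Figure D4:**
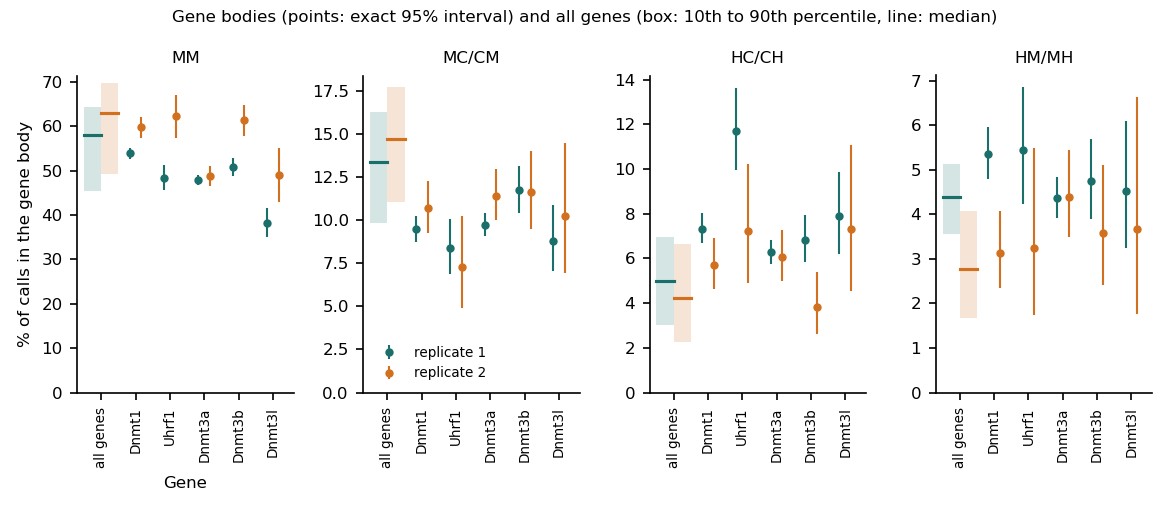
MM, MC/CM, HC/CH and HM/MH as a percentage of calls in the gene body of each member (points with exact 95% intervals) beside all genes (box from the 10th to the 90th percentile with the median as a line), for each replicate. MC/CM of all 5 members lies below the median of the replicate, and HC/CH lies above the box in both replicates of Uhrf1 and Dnmt3l and in replicate 1 of Dnmt1.

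No member was called different from the median gene in HM/MH of the body by edgeR. It was 5.35% and 3.12% in Dnmt1, 5.44% and 3.25% in Uhrf1, 4.36% and 4.39% in Dnmt3a, 4.74% and 3.58% in Dnmt3b and 4.51% and 3.66% in Dnmt3l, against medians of 4.38% and 2.76%. None of the 3 members tested was called, against 2.05% of genes (154 genes by edgeR). In edgeR none of the 3 had an unadjusted p under 0.05, whereas limma on percentages gave 0.0416 for Dnmt3a (limma adjusted p = 0.173). At sites with at least 10 calls the mean HM/MH of Dnmt3l was 1.17%, against 4.09% over all its sites. In replicate 1, 4.51% of MM duplexes were read as HM/MH. That rate is a share of MM and not of all calls, so it cannot be set directly against the levels. After correction by the spike-in call rates of each replicate, HM/MH was 2.79% and 2.72% in Dnmt1, 3.12% and 2.77% in Uhrf1, 2.06% and 4.08% in Dnmt3a, 2.31% and 3.27% in Dnmt3b, and 2.71% and 3.26% in Dnmt3l, against a corrected median gene of 1.65% and 2.38%. All 5 lay above the corrected median in both replicates. In the limma fit of corrected percentages Dnmt3a was called higher, by 1.06 points (limma adjusted p = 0.00178), while Dnmt1 was not called at 0.742 points (limma unadjusted p = 0.0141, adjusted p = 0.0501), and that fit called 2110 of the 7523 genes. Correction moved HC/CH less, to 7.02% and 5.79% in Dnmt1 and 11.5% and 7.44% in Uhrf1.

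**Figure D5:**
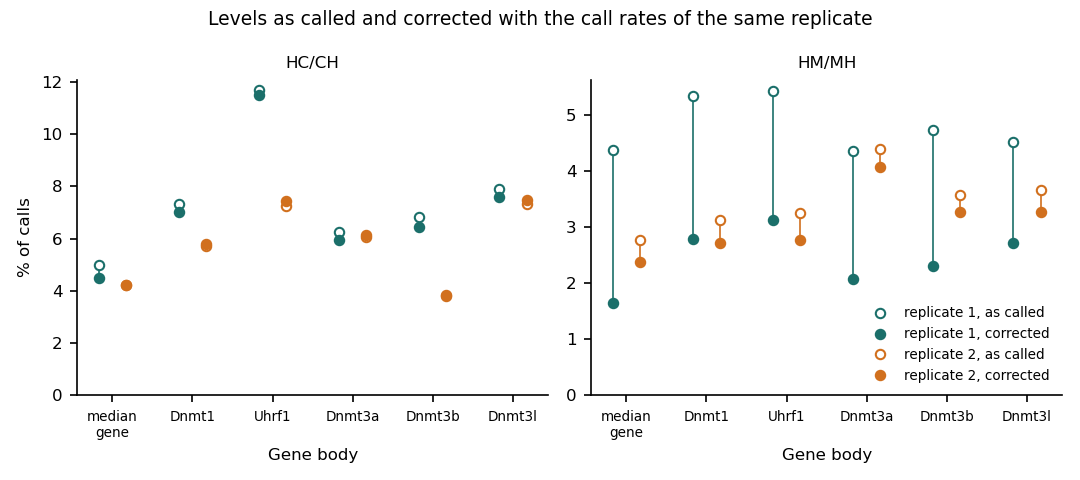
HC/CH (left) and HM/MH (right) in gene bodies as a percentage of calls, as called (open) and corrected by the spike-in call rates of each replicate (filled), for the median gene and each member. HM/MH of replicate 1 falls from 5.35% to 2.79% in Dnmt1, while its HC/CH moves from 7.34% to 7.02%.

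No difference between the strands was called in MC/CM or HC/CH, the states tested. Relative to the direction of transcription, the level of MC/CM with mC on the coding strand minus that with mC on the template strand was -0.444 ± 0.223 points in Dnmt1, -1.08 ± 0.305 points in Dnmt3a and -1.19 ± 1.12 points in Dnmt3b (SD, n = 2). None of the 3 was called, against 0.0133% of 7523 genes, though Dnmt3a had an unadjusted p of 0.0203 in the edgeR fit, as did 7.84% of all genes under 0.05. For HC/CH none of the 3 was called, against 0% of genes, and none had an unadjusted p under 0.05, against 3.31% of genes. The log2 odds ratios were -0.23 ± 0.17 in Dnmt1, 0.16 ± 0.16 in Dnmt3a and -0.02 ± 0.25 in Dnmt3b.

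The windows of highest HC/CH were picked from 1 kb windows with at least 50 calls in each replicate, by the level in the lower replicate, and are a description. They are the highest only among windows with that many calls. The Dnmt3a run at 99500 bp, with 47 calls in replicate 2, had HC/CH at 13% and 14.9%. The window of Dnmt3l at 15000 bp had HC/CH at 10.2% of 88 calls and 11.6% of 69 calls. That of Dnmt3b at 24000 bp had 10.5% of 76 calls and 10.0% of 50 calls, and that of Dnmt1 at 34000 bp, in an intron, had 11.9% of 134 calls and 8.62% of 58 calls. The intervals of these 3 windows held the level of the whole body in both replicates, so none was separated from it. In Dnmt3a the window, at 13000 bp, had 3.57% of 140 calls and 3.70% of 54 calls, below the level of its body, which the intervals also held. In Uhrf1 the window lay 4000 bp upstream, within 1 kb of the start of a neighbouring gene on the opposite strand, with 7.53% of 146 calls and 4% of 75 calls. These values were below the body of Uhrf1, at 11.7% and 7.25%, which the intervals also held.

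Upstream of the genes, more than 1 kb from any TSS, Dnmt3l had the highest CC level of the members in both replicates, a difference that was not tested. It was 42.2% of 393 calls and 36.6% of 142 calls, against the 12.3% of 211 calls and 8.70% of 46 calls upstream of Dnmt3b and the 19% of 369 calls and 20.3% of 74 calls upstream of Dnmt1. HC/CH there was 8.91% and 9.86% in Dnmt3l and 4.61% and 2.70% in Dnmt1. The intervals of CC in Dnmt3l overlapped those upstream of Dnmt1 and Dnmt3a in replicate 2 and of Uhrf1 in replicate 1, and Uhrf1 had only 94 and 17 calls there.

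Over 36 levels (6 states in promoter, exon and intron of both replicates), Dnmt1 and Dnmt3b were the closest pair of members, with a Euclidean distance of 16.9 percentage points, and Uhrf1 and Dnmt3a the farthest, with 65.0. The distances hold for promoters at all protein-coding TSSs. They were not computed for the basic-set TSSs, where the promoter CC of Dnmt3a was far higher. Among 3032 genes with at least 100 calls in each region and replicate, the nearest to Dnmt1 were Naa25 (distance 9.13), Eif4g1 and Nr5a2, to Dnmt3b D16Ertd472e (11.5), 1110059E24Rik and Eipr1, and to Dnmt3a Ccdc63 (15.0) and Prdm2. The nearest to Uhrf1 were Pcif1 (13.8), Polr2a and Cct3, and to Dnmt3l Rhbdf2 (18.9), Tnk2 and Plekha7, with the regions of these 2 members resting on fewer calls. The median distance to all genes was 37.4 for Dnmt3b and 60.9 for Dnmt3l.

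The other genes of the methylation machinery were read as a list of 20, with readers, chromatin remodellers, histone methyltransferases and zinc finger proteins that guide or limit DNMT1 and DNMT3. Without a minimum of calls, CC was higher at the promoter in 18 of 20, with a median log2 odds ratio of 5.36, against 13557 of 18905 genes and a median of 3.41. Hells, a chromatin remodeller needed for methylation, had the highest value, with promoter CC at 98.4% and 100% and a log2 odds ratio of 8.40. Dppa3, which keeps UHRF1 from chromatin in the egg, was the exception called lower at the promoter, with promoter CC at 48.3% of 240 calls and 61.3% of 31 calls (log2 odds ratio -1.38, edgeR adjusted p = 0.0345). Of the 9 cofactors that passed the minimum of calls, 8 were called higher, against 94.6% of all 6239 genes tested, and none lower, against 44 genes.

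In the same fit, HC/CH at the promoter was lower in 13 of these 20 genes and higher in none, and HM/MH likewise in 13 and in none, against 27.1% and 28.1% of all genes. In gene bodies HC/CH was higher than in the median gene in 8 of 20, against 18.0% of all genes, and lower in 1, against 3735 of 19221 genes. The median log2 odds ratio was 0.26, against -0.02 over all genes. Cxxc1, a CpG-binding protein, was highest in replicate 1, with 10.0% and 8.33% (log2 odds ratio 1.07). In replicate 2 Zfp57 was higher, at 10.5% of 162 calls. Pcna, the replication clamp, was the one called lower, with 1.23% of 326 calls and 3.08% of 65 calls (-1.70, edgeR adjusted p = 0.0219). It was lowest in replicate 1, whereas in replicate 2 Mphosph8 was lower, at 2.20% of 364 calls. MC/CM was lower in 9 of 20, against 26.5% of all genes, with a median of -0.16 against -0.05. It was higher in 2, against 3300 of 19462 genes, namely Setd2, a histone H3 lysine methyltransferase, and Trdmt1, a tRNA methyltransferase related to the DNMTs. MM was lower in 11, against 37.0% of all genes, and higher in 4, namely Uhrf2, Lig1, Zfp445 and Trdmt1, against 3922 of 19473 genes. HM/MH was lower in 1, Trim28 (-1.28, edgeR adjusted p = 0.00122), against 276 of 19213 genes, and higher in none, against 23. Only 9 of the 20 reached the minimum of calls in the body. In that fit HC/CH was higher in 3 of 9, against 25.8% of all genes, MC/CM was lower in 2, against 28.1%, and MM was lower in 5, against 36.5%. Exons against introns and the coding against the template strand gave no call among the 20 genes for any state tested.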

How the data were processed

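Per the authors, reads were adapter-filtered with Cutadapt 4.6, aligned to mm10 with BSBolt and freed of duplicates with Picard 3.1.1, and each replicate was then stripped of sites with fewer than 5 calls, repeated calling errors or a place on the blacklist. The deposited tables give, for each CpG site and state, the raw count of read pairs and the percentage of the site's calls, uncorrected. From the counts, calls were summed over promoters (1 kb either side of each protein-coding TSS of GENCODE vM21), exons, introns, bodies and the 5 kb upstream, and a level is the share of summed calls with an exact Clopper-Pearson 95% interval.

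Odds of a state were compared with the quasi-likelihood test of edgeR 4.0.16 (R 4.3.3) across all protein-coding genes, with Benjamini-Hochberg adjustment at 0.05. At least 100 calls were needed in each region, or 500 in the body, in each replicate. Tests between regions had a state-by-replicate term. Tests of the body had an effect per replicate and, as a fixed offset, the log odds of the state in the median gene of the replicate. Tests of the strands had an effect per replicate. limma 3.58.1 on percentages was the alternative. Uhrf1 at the promoter and in the body, and Dnmt3l in the body and exons, fell below these minimums and were taken from the planned fit without them. Other alternatives were a coverage minimum of 10, shared sites, other promoters, no replicate term, and correction by the spike-in call rates (9 linear equations, negative values set to 0). The scripts used Python 3.11.15, NumPy 2.4.6 and SciPy 1.17.1. The tests were tried on simulated counts.

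The 5 members, the 20 cofactors and the stem cell markers were chosen with earlier results of these data known. Genes were named if they were members, the 3 nearest genes by distance, or cofactors that were extreme or called in the rarer direction. A marker list and 1 near gene are not reported here. Floors beside a count of 0 are 3 calls of the total, which also treats calls as independent.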

Additional observations from a re-analysis of the deposited data

How the results depend on the processing

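No called result of the members reversed its direction under the alternatives in which it could be tested. With promoters only at the gene 5′ end, no member entered the test of CC against the body. At that start of Dnmt1, CC was 6.17% of 81 calls in replicate 1 and 17.1% of 41 calls in replicate 2. These values lay below its body, at 23.5% and 20.4%, opposite to the called result, and were not tested. Differences between exon and intron that were not called changed sign on shared sites in HC/CH of Dnmt3a (log2 odds ratio -0.28 to 0.08) and Dnmt3b (-0.18 to 0.01) and HM/MH of Dnmt3a (0.51 to -0.10), and HM/MH of Uhrf1 went from 0.08 to -0.02 without the block and to -0.287 and -0.673 points by limma on percentages as called and corrected. Of the members' test results, 193 stayed on their side of the threshold, 5 passed it newly and 2 lost it. Of the members called, CC at the promoter was 1 with promoters of 500 bp either side, where 1 could be tested. HC/CH at the promoter was called in 2 without the replicate block (Dnmt3b newly, log2 odds ratio -1.13, edgeR adjusted p = 0.0448) and in 2 with the TSSs of the basic set, chosen after seeing the data. HM/MH at the promoter was called in 0 on shared sites, in 2 by limma (Dnmt3l newly, -2.45 points, adjusted p = 0.0365), in 2 without a minimum of calls and in 2 with the basic set. Without a minimum, gene bodies were called in 5 for MC/CM, 4 for HC/CH and 5 for MM, and HM/MH was called in 1 by limma on corrected percentages.

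Promoter CC, as the mean of the replicates, moved in Dnmt1 from 82.0% to 83.3% with equal weight of sites, 87.8% at a coverage minimum of 10, 83.8% on shared sites and 83.0% when corrected, and in Dnmt3b from 86.7% to 87.2%, 86.3%, 82.9% and 87.7%. In Dnmt3l it moved from 70.3% to 71.1%, 52.7%, 72.2% and 71%, and in Uhrf1 from 95.5% to 87.2% on shared sites and 96.7% when corrected. In Dnmt3a it went from 61.7% to 60.8%, 61.5% and 62.3% with equal weight, shared sites and correction, within its spread, but to 96.5% at the TSSs of the basic set, where its log2 odds ratio against the body rose from 1.90 to 5.76. In Dnmt3a and Uhrf1 no promoter site of replicate 2 had 10 calls. Body HC/CH of Dnmt3a moved from 6.17% to 6.44%, 4.69%, 5.89% and 6.03%, and its HM/MH from 4.38% to 4.46%, 3.93%, 4.29% and 3.07%. At the coverage minimum of 10, body HC/CH of Dnmt3l was 4.37%, and HM/MH was 1.17% in Dnmt3l and 2.96% in Dnmt3b. HM/MH of Dnmt3l was 3.33% on shared sites and 2.99% when corrected, and that of Dnmt3b was 2.79% when corrected. The cause was not tested. No member could be tested at the coverage minimum of 10.

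Over all genes, without the coverage minimum of 10 (10 to 299 genes tested and 0 to 79 called), the count called ranged from 2646 to 14140 for CC at the promoter, 1712 to 5311 for HC/CH, 1742 to 5313 for HM/MH, 1 to 243 and 0 to 125 for HC/CH and HM/MH between exon and intron, and 3408 to 8464, 3733 to 7189, 251 to 2110 and 5109 to 11124 for MC/CM, HC/CH, HM/MH and MM in bodies, against 5944, 3531, 3588, 140, 22, 4225, 4047, 154 and 5256 as reported. The strand test called 0 to 2 genes for MC/CM and 0 for HC/CH. Leaving out a replicate gave values with no test. Promoters and bodies, exons and introns, and the strands were paired within each replicate by the replicate block, which stands for the passage. Depth limits replicate 2 most, with 27 exon calls in Dnmt3l and 80 promoter calls in Uhrf1.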
